A study of Mus musculus with 4 samples.

Results

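Genes of the proteasome and of the ubiquitin-activating and ubiquitin-conjugating enzymes were followed in mouse heart ventricles on 4 deposited log ratio columns. Members were the clones whose platform annotation gave 1 gene symbol starting with Psm and a letter from a to g before a digit, with Ube2, or with Uba and a digit. Clones of 1 symbol were averaged. This gave 63 of 8106 named genes, from 109 of 12480 clones with 1 symbol and values: 38 proteasome symbols, 23 Ube2 symbols and 2 Uba symbols. A single clone measured 31 members, and 2 to 5 clones measured each of the other 32. Psmc3ip and Psme3ip1 match by the letters of their symbols only and belong to neither system. A further 3 clones carried a member's symbol next to a second symbol and were not used. Psmb6, the immunoproteasome catalytic subunits Psmb8, Psmb9 and Psmb10, and Psme2 were not analysed here.

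The series asked whether high salt intake changes cardiac gene expression in mice given deoxycorticosterone acetate (DOCA), a mineralocorticoid that makes the kidney hold sodium. The animals were 6 male mice of 12 to 13 weeks, 3 for each salt intake, from a wild-type backcross labelled N5–6 (129Ola/C57BL/6J) and 1-renin. All had lost 1 kidney, received DOCA for 5 weeks and ate food with 0.5 mg sodium per g, so salt intake was the only labelled difference. Drinking water held 1% NaCl for high salt and was tap water for low salt. Ventricles were taken with the septum, so the RNA came from all cell types of the tissue, and fewer cells of a type and less RNA per cell cannot be told apart. Each printed cDNA array set 1 high-salt heart against 1 low-salt heart. Array 1 held animal pair 1, array 3 held pair 3, and arrays 2 and 4 held the same mice of pair 2 with the dyes exchanged, so they were averaged first and n was 3 pairs. Heart weights were 131, 128 and 120 mg in the high-salt mice of pairs 1, 2 and 3 and 109, 107 and 108 mg in their low-salt partners.

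The 26S proteasome degrades proteins that carry ubiquitin chains. Its 20S core is a barrel of alpha rings, which gate the entrance, and beta rings, which hold the protease sites. The 19S cap binds the chain, removes it and unfolds the substrate with a ring of ATPases. Ubiquitin reaches a substrate through an E1 activating enzyme, an E2 conjugating enzyme and an E3 ligase. Heart muscle depends on this system for turnover of sarcomere proteins, and it is much studied in cardiac growth and failure.

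The sign of the ratios needs care for these genes. Cy3 marked the high-salt heart on arrays 1 and 2 and Cy5 marked it on arrays 3 and 4. All array titles word the comparison as high against low salt, which makes it likely, but not settled, that positive values mean higher in high salt on every array. This is called the reading as deposited. The base of the logarithm is assumed to be 2. Over the 63 members, arrays of the same dye orientation and different mice had r = 0.49 (arrays 1 and 2) and r = 0.72 (arrays 3 and 4), whereas arrays of opposite orientation had r = -0.63 (1 and 3), -0.48 (1 and 4) and -0.34 (2 and 3). Arrays 2 and 4, the exchange of dyes on the same mice, had r = -0.32 over the members. Over all 8106 genes the arrays of 1 orientation had r = 0.57 and 0.47, and the same 4 opposite pairs had -0.31, -0.11, -0.33 and -0.073. These are correlations across genes, which are not independent replicates, and each array pair shares the print layout and the labelling scheme. Because of the negative values, the subgroups and the members described with array values are also given, for the most part, with the signs of arrays 1 and 2 turned. In that turned reading a value keeps its sign from arrays 3 and 4, and which heart is higher is not known unless those columns are Cy5 over Cy3. A gene with a dye bias under the reading as deposited and a gene with a salt response under the turned reading look alike. The 4 ratios of that gene alone do not tell them apart. Some gene sets kept their sign as deposited on arrays 2 and 4, which held the same mice with exchanged dyes. The 16 measured interferon genes averaged 0.57 and 0.44 on them, with 13 and 12 above 0. On arrays 1 and 3 they averaged -0.035 and -0.17. The 12 measured fibroblast markers averaged 0.46 and 0.53 on arrays 2 and 4, with 10 and 9 above 0. Turned, array 2 has the opposite sign to array 4 in these sets. Which reading holds was not tested.

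As deposited, the members as a group lay close to 0. Their mean log2 ratio was 0.11, -0.028, -0.11 and -0.077 on arrays 1 to 4 and -0.018 ± 0.11 over the pairs (SD, n = 3), against 0.0066 ± 0.058 for all genes. The median over the members was -0.015, with 26 above 0 and 37 below. Of the 63 members, 41 (65.1%) had a mean within 0.1 of 0, as did 63.4% of all genes. No member passed an adjusted p of 0.05 in limma, and the smallest was 0.640 for Ube2c. Among all genes 0 passed as well (0%), with 441 (5.44%) at an unadjusted p under 0.05. At that unadjusted level 3 members (4.76%) differed from 0, a share near that of all genes. Ube2c lay above 0, as 2.81% of all genes did at that level, and Psmb11 and Psmc3 lay below, as 2.63% did. Leaving out pair 2 gave 2 members above and 0 below, and leaving out pair 3 gave 1 above and 4 below. The shares of all genes with a pair left out were not counted as deposited.

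Most members had small ratios whose sign varied between arrays. On all 4 arrays 2 members (3.17%) were above 0, beside 7.01% of all genes, and 5 (7.94%) were below, beside 7.75%. In 14 members (22.2%) the ratio was above 0 on arrays 1 and 2 and below 0 on arrays 3 and 4, beside 18.7% of all genes. The reverse held for 9 members (14.3%), beside 12.7%. So 23 of 63 members changed sign with the dye orientation and 7 kept 1 sign throughout.

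**Figure D1:**
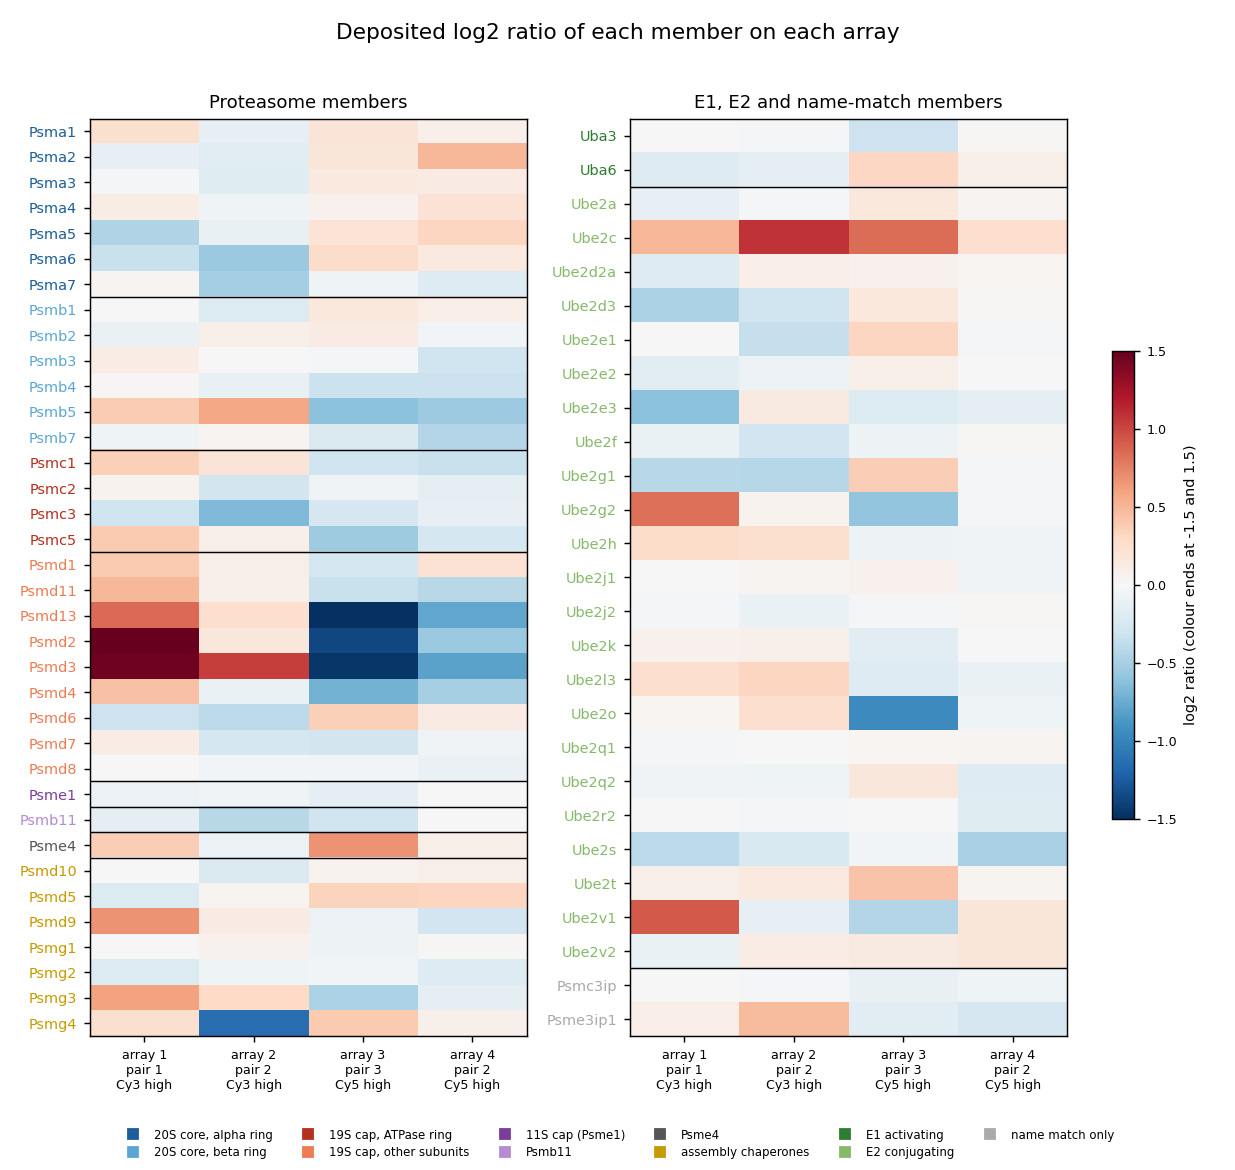
Deposited log2 ratio of each of the 63 members (rows, coloured by subgroup) on each of the 4 arrays (columns, with the animal pair and the dye of the high-salt heart). Colours end at -1.5 and 1.5. Psmd2, Psmd3 and Psmd13 are the darkest rows and change colour between arrays 2 and 3, and Ube2c is red on all 4.

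The alpha ring of the core (Psma1 to Psma7, all 7 measured) did not move one way as deposited. Its mean log2 ratio was -0.078, -0.25, 0.14 and 0.17 on arrays 1 to 4, or 0.0092 ± 0.12 over the pairs (SD, n = 3). On array 2 all 7 alpha genes were below 0, and on arrays 3 and 4 6 of 7 were above 0 each time. In the turned reading the mean was 0.14 ± 0.065 with 7 of 7 above 0, and for all genes it was -0.048 ± 0.016. Psma6 had log2 ratios of -0.33, -0.56, 0.27 and 0.14 on arrays 1 to 4. Its arrays of 1 orientation did not overlap those of the other, and the turned mean was 0.32 ± 0.04 (limma adjusted p = 0.093). Psma2 read -0.12, -0.17, 0.19 and 0.50, and Psma5 read -0.45, -0.11, 0.21 and 0.32. Both were below 0 with Cy3 on the high-salt heart and above 0 with Cy5, and both had an unadjusted p under 0.05 in the turned reading, with means of 0.21 ± 0.11 and 0.29 ± 0.14. Psma3 had the same signs, with a turned mean of 0.11 ± 0.07, but not in every clone. One clone read 0.31, 0.33, 0.11 and 0.075, another -0.070, -0.13, -0.13 and 0.14, and its other clones had the signs of the gene. The other alpha genes (Psma1, Psma4 and Psma7) had mixed signs and turned means between 0.016 and 0.032. In Psma1 and Psma4 these means average clones that went opposite ways. The clones of Psma1 read 0.56, 0.17, 0.023 and 0.014, and -0.0885, -0.42, 0.36 and 0.13. Those of Psma4 read 0.41, 0.37, -0.24 and 0.079, and -0.19, -0.49, 0.37 and 0.36.

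The beta ring, which carries the protease sites, had a mean of the opposite sign to the alpha ring on each of the 4 arrays. The 6 measured beta genes (Psmb1 to Psmb5 and Psmb7) had means of 0.058, 0.066, -0.15 and -0.26 on arrays 1 to 4, -0.062 ± 0.11 as deposited and -0.12 ± 0.056 turned. Only 1 of the 6, Psmb5, changed sign with the orientation, and it had the largest ratios. The beta genes above 0 were 4, 3, 2 and 1 on arrays 1 to 4. Their medians on arrays 1 and 2 were 0.015 and 0.021, close to 0. Psmb5 encodes the subunit with the chymotrypsin-like site, the target of clinical proteasome inhibitors. It read 0.38, 0.58, -0.61 and -0.54 on arrays 1 to 4. Both arrays with Cy3 on the high-salt heart were high and both with Cy5 were low, so the mean as deposited was -0.071 ± 0.50 and the turned mean -0.52 ± 0.12 (limma adjusted p = 0.093). Psmb7, the subunit with the trypsin-like site, read -0.059, 0.042, -0.22 and -0.44. Array 2 alone lay above 0, and the mean was -0.16 ± 0.09 (limma adjusted p = 0.93) and -0.13 ± 0.17 turned. Psmb4 read 0.02, -0.11, -0.32 and -0.32, with both Cy5 arrays lowest, and had a mean of -0.17 ± 0.17 and of -0.15 ± 0.15 turned. Its clones differed in this order. One, at -0.33, -0.47, -0.056 and -0.24, had the Cy3 arrays lowest, and the other read 0.38, 0.25, -0.58 and -0.40. Psmb1, Psmb2 and Psmb3 had mixed signs and means between -0.024 and 0.039 as deposited. Alpha and beta genes together (13 core genes) had a mean of -0.023 ± 0.037 as deposited and 0.020 ± 0.015 turned.

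**Figure D2:**
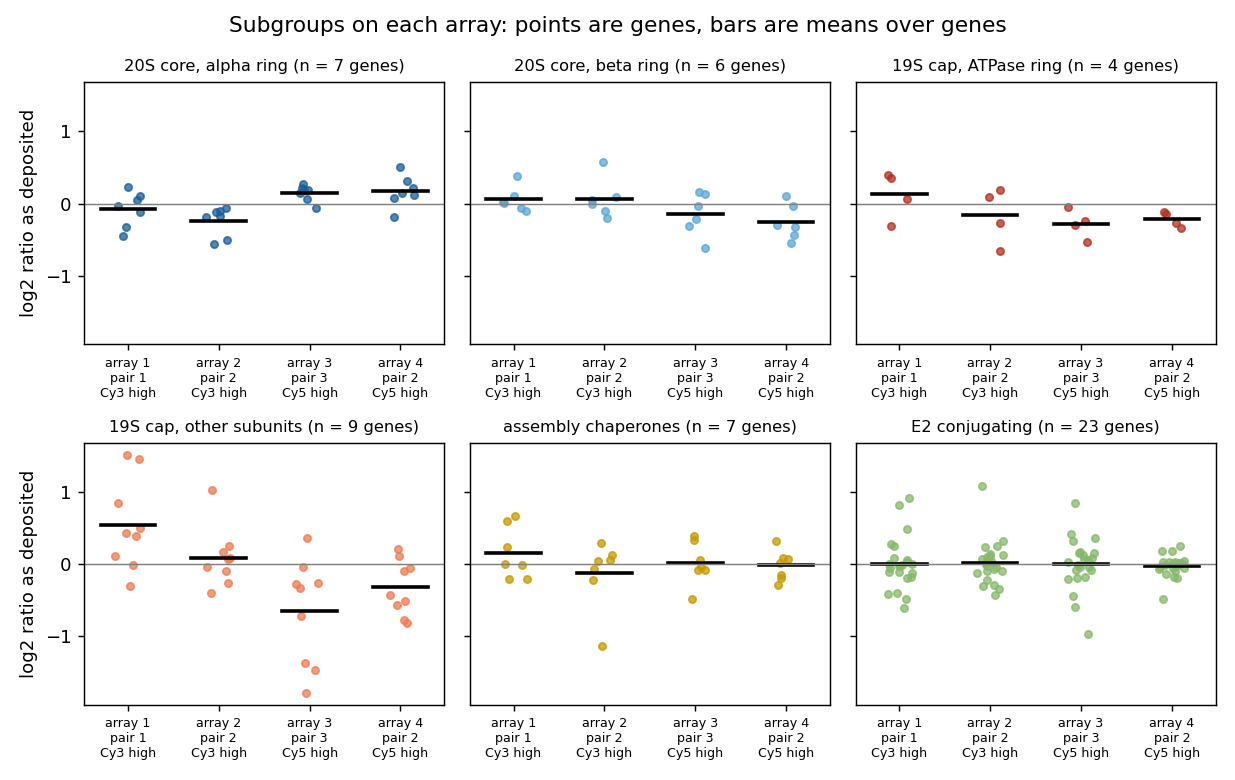
Log2 ratios as deposited in 6 subgroups, with 1 point per gene and a bar for the mean over genes, on arrays 1 to 4 (horizontal axis, with animal pair and the dye of the high-salt heart). The non-ATPase cap subunits run from a mean of 0.55 on array 1 to -0.65 on array 3, while the 23 E2 enzymes stay centred near 0 on every array.

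The 19S cap swung more widely between arrays than the core, the chaperones and the E2 enzymes. Its 13 measured genes averaged 0.42, 0.013, -0.54 and -0.29 on arrays 1 to 4, with 10 of 13 above 0 on array 1, 12 of 13 below 0 on array 3 and 11 of 13 below 0 on array 4. The mean over pairs was -0.085 ± 0.48 as deposited, so the pairs differed by far more than their mean. Without pair 1 it was -0.34 and without pair 3 it was 0.14. In the turned reading it was -0.37 ± 0.20, with 11 of 13 below 0. The cap minus the core was 0.44, 0.12, -0.55 and -0.26 on arrays 1 to 4, which gives -0.062 ± 0.49 as deposited and -0.39 ± 0.18 turned (SD, n = 3 pairs). That turned difference lay between -0.55 and -0.19 in the pairs. These differences between subgroups are descriptions, and no test was made on them. The non-ATPase subunits carried most of the swing (9 genes, -0.47 ± 0.23 turned), and the 4 ATPases less (-0.15 ± 0.13).

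Psmd2, Psmd3 and Psmd13 are structural subunits of the cap, and Psmd2 is the large base subunit that docks ubiquitin-like domains. Psmd3 read 1.46 and 1.04 on arrays 1 and 2 and -1.46 and -0.81 on arrays 3 and 4. Psmd2 read 1.51, 0.17, -1.36 and -0.56. Psmd13 read 0.85, 0.26, -1.78 and -0.77. In each of these genes both Cy3 arrays were above 0, both Cy5 arrays were below, and the 2 orientations did not overlap. The means as deposited were 0.039 ± 1.46 for Psmd3, -0.015 ± 1.45 for Psmd2 and -0.40 ± 1.32 for Psmd13, each much smaller than its spread over the pairs. The turned means were -1.28 ± 0.31, -1.08 ± 0.63 and -1.05 ± 0.66, with limma adjusted p of 0.081, 0.14 and 0.16. Without these 3 genes the other 10 cap genes averaged 0.16, -0.13, -0.24 and -0.16 on arrays 1 to 4 and -0.14 ± 0.11 turned, with 8 of 10 below 0. The set of 3 was singled out after its values were seen.

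The promoters of Psmd2 and Psmb5 are shown because these genes changed sign with the orientation in the cap and in the core. Each is the 250 bases before the RefSeq start (GRCm38.p6), written 5′ to 3′ on the gene's strand, at chr16:20651402-20651651 (+) for Psmd2 and chr14:54617996-54618245 (-) for Psmb5. Capitals mark CCGGAAG, a core that ETS factors bind, in Psmd2, where it lies on the opposite strand, and TGACNNNGC, the core of the antioxidant response element that Nrf1 and Nrf2 bind, in Psmb5.
Psmd2: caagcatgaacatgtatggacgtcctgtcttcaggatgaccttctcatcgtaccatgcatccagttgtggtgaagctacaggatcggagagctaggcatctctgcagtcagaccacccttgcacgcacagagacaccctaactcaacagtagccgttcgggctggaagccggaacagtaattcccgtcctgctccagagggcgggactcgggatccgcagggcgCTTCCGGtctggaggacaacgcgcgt
Psmb5: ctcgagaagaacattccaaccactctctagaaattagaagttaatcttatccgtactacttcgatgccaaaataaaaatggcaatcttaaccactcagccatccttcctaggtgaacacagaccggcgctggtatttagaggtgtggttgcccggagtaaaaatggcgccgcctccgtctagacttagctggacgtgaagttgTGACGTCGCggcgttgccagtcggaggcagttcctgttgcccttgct
Both strands were searched in 61 promoter windows of the 50 members with an entry. CCGGAAG was in 17 windows of 15 members (27.9%), beside 6.95% of all 32536 windows. TGACNNNGC was in 6 member windows (9.84%), beside 10.2% of all. The motifs were chosen after the sequences were seen, and a match is a description, not a binding site.

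Other cap subunits were smaller in size. Psmd11, a lid subunit, read 0.50, 0.080, -0.33 and -0.42. Both Cy3 arrays were above both Cy5 arrays, and the turned mean was -0.36 ± 0.13 (limma adjusted p = 0.11). Psmd4, a ubiquitin receptor, read 0.44, -0.094, -0.71 and -0.50, so only array 1 was above 0 and the turned mean was -0.45 ± 0.25. The ATPase Psmc1 read 0.36, 0.19, -0.30 and -0.34, a turned mean of -0.31 ± 0.05. The ATPase Psmc5 read 0.39, 0.090, -0.53 and -0.27, a turned mean of -0.37 ± 0.18. In both ATPases the Cy3 arrays were above 0 and the Cy5 arrays below, and neither passed after adjustment. Psmd6, another lid subunit, had the reverse signs of these ATPases at -0.31, -0.40, 0.36 and 0.12, a turned mean of 0.31 ± 0.05. Psmc3, an ATPase, was below 0 on every array at -0.30, -0.66, -0.25 and -0.12. Its mean was -0.31 ± 0.07 as deposited (limma adjusted p = 0.83) and 0.11 ± 0.31 turned. Its clones differed, with one at -0.63, -0.94, -0.0099 and 0.018 and the other at 0.024, -0.38, -0.49 and -0.26. Psmd1, the other large scaffold of the base, read 0.39, 0.088, -0.27 and 0.22, with array 3 alone below 0. Psmc2 and Psmd7 had mixed signs, with means of -0.069 ± 0.13 and -0.11 ± 0.20. Psmd8, a lid subunit, was below 0 on all 4 arrays by little, with a mean of -0.038 ± 0.03. Neither of its clones was below 0 throughout, with one at -0.023, 0.084, -0.16 and -0.18 and the other at 0.015, -0.17, 0.085 and -0.015.

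**Figure D3:**
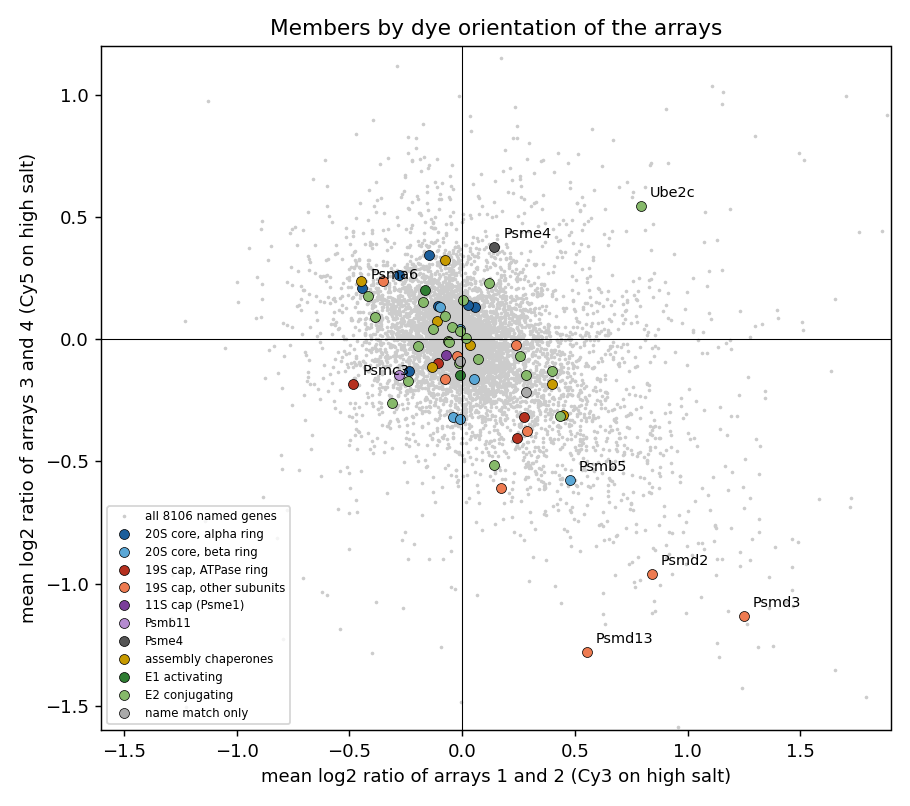
Mean log2 ratio of arrays 1 and 2 (horizontal, Cy3 on the high-salt heart) against that of arrays 3 and 4 (vertical, Cy5 on it), for the 63 members (coloured by subgroup) and all 8106 named genes (grey; 24 genes, none a member, lie outside the axes). Psmd2, Psmd3 and Psmd13 lie at the lower right, where the orientations oppose, and Ube2c lies at the upper right, where they have the same sign.

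Cap activators and special subunits were few. Psme1, part of the interferon-inducible 11S cap and the only measured gene of the immunoproteasome list, read -0.091, -0.055, -0.14 and 0.0084. The values sat near 0, with a mean of -0.083 ± 0.057 that did not pass, and -0.0043 ± 0.12 turned. The 16 measured interferon genes of 34 listed had means of -0.035, 0.51 and -0.17 in pairs 1, 2 and 3 as deposited, and a turned mean of -0.068 ± 0.10. In pair 2 the interferon mean was 0.57 on array 2 and 0.44 on array 4. These have the same sign with the dyes exchanged, so they largely cancel when turned. Psmb11, the catalytic subunit of the thymic proteasome, read -0.14, -0.41, -0.30 and 0.01, a mean of -0.22 ± 0.08 (limma adjusted p = 0.86), and 0.017 ± 0.28 turned. Its clone is annotated through an expressed sequence tag, and a ratio does not show whether the gene is expressed in heart. Psme4 encodes PA200, a nuclear activator of the core. It read 0.37, -0.087, 0.67 and 0.084, so pair 3 was highest and array 2 below 0. Its mean of 0.35 ± 0.34 was the second highest of the members and did not pass (limma adjusted p = 0.97), and the turned mean was 0.13 ± 0.52.

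The chaperones that build the core and the cap and leave the finished particle had a mean of 0.034 ± 0.12 over 7 genes (-0.029 ± 0.11 turned). Psmg3, a core chaperone, read 0.60, 0.30, -0.48 and -0.15. The orientations did not overlap, and the turned mean was -0.43 ± 0.19 (limma adjusted p = 0.12). Psmd9, a cap chaperone, read 0.67, 0.13, -0.084 and -0.29. It followed the same order with a turned mean of -0.32 ± 0.31 (limma adjusted p = 0.30). Psmd5, a cap chaperone, read -0.20, 0.046, 0.33 and 0.32, with the Cy5 arrays highest and a turned mean of 0.22 ± 0.10. Psmg4 stood out on 1 array, with -1.14 on array 2 against 0.24, 0.39 and 0.080 on arrays 1, 3 and 4. Psmd10 and Psmg1 had means within 0.1 of 0. Psmg2, another core chaperone, was below 0 on all 4 arrays with a mean of -0.12 ± 0.09 (limma adjusted p = 0.99).

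Most E2 conjugating enzymes pass ubiquitin to substrates together with E3 ligases, and as a class the E2 genes were centred on 0. The 23 genes had means of 0.011, 0.024, 0.00084 and -0.022 on arrays 1 to 4, 0.0040 ± 0.0057 as deposited and -0.011 ± 0.012 turned. Above 0 were 11 and below 0 were 12, and 15 of 23 (65.2%) lay within 0.1 of 0, beside 63.4% of all genes. The E1 enzymes Uba3, which activates NEDD8, and Uba6, which activates ubiquitin and FAT10, had means of -0.11 ± 0.18 and 0.033 ± 0.26 as deposited, and of -0.095 ± 0.18 and 0.20 ± 0.10 turned.

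Ube2c, the E2 that starts ubiquitin chains for the anaphase-promoting complex in mitosis, had the highest mean of the members. It read 0.50, 1.09, 0.84 and 0.25 on arrays 1 to 4. All 4 values were above 0, with arrays 2 and 4 of the same mice at 1.09 and 0.25. The mean of 0.67 ± 0.17 (SD, n = 3 pairs) had a limma adjusted p of 0.64, so it did not pass. Over the other settings that keep the signs as deposited, the mean stayed between 0.53 and 0.81. In the turned reading it was -0.024 ± 0.75. Ube2t, the E2 of the Fanconi anaemia pathway of DNA crosslink repair, read 0.092, 0.14, 0.42 and 0.039. All were above 0, array 3 the most, with a mean of 0.20 ± 0.19 (limma adjusted p = 0.98) and of 0.093 ± 0.29 turned. Ube2s, which extends the chains that Ube2c starts, read -0.40, -0.22, -0.038 and -0.48. It was below 0 on every array, opposite to Ube2c, with a mean of -0.26 ± 0.20 (limma adjusted p = 0.93) and of 0.077 ± 0.28 turned.

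The promoters of Ube2c and Ube2t are shown because these were the members above 0 on all 4 arrays. They are the 250 bases before the RefSeq start on GRCm38.p6, at chr2:164769679-164769928 (+) and chr1:134962315-134962564 (+). Capitals mark CCAAT, the box that NF-Y binds, and in Ube2c also TTTGAA, the cell cycle homology region of many mitotic genes, each in either orientation.
Ube2c: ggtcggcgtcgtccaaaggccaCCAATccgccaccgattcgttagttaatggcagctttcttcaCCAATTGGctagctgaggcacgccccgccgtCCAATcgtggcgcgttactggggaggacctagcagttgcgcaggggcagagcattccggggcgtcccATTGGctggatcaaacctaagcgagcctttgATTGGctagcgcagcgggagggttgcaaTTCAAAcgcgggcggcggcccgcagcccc
Ube2t: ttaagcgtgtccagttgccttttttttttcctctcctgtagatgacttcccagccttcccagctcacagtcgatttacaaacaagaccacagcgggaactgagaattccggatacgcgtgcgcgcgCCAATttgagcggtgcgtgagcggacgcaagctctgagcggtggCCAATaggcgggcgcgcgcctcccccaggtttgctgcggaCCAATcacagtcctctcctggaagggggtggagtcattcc
The Ube2c window held 6 CCAAT boxes, a pair of them overlapping on opposite strands in CCAATTGG, and 1 TTTGAA, and the Ube2t window held 3 CCAAT boxes. CCAAT was in 19 of 61 member windows (31.1%), beside 33.8% of all windows, and TTTGAA in 6 (9.84%), beside 15.8%.

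The anaphase-promoting complex and its activators, the E3 that works with Ube2c and Ube2s, had members on both sides of 0. Its 14 measured genes had a mean of -0.022 ± 0.020 as deposited, with 6 above 0 and 8 below, and 0 had an unadjusted limma p under 0.05. The lowest and highest means were those of Anapc7 (-0.31 ± 0.71) and Anapc2 (0.19 ± 0.45). In the turned reading the mean was -0.015 ± 0.015, and 5 of 14 (35.7%) had an unadjusted p under 0.05, beside 20.8% of all genes, 3 of them positive and 2 negative. Cdc20, its mitotic activator, read -0.11, 0.10, 0.059 and -0.0051. Markers of the cell types of the ventricle had ratios of their own. The 12 measured of 14 fibroblast markers had means of 0.64, 0.49 and 0.42 in pairs 1, 2 and 3, with 11 of 12 above 0, and -0.061 ± 0.54 turned. The 6 measured of 24 macrophage and leukocyte markers had means of -0.065, 0.059 and -0.45, and -0.20 ± 0.26 turned. The 4 measured of 23 cardiomyocyte markers had -0.062, -0.098 and 0.48, and 0.15 ± 0.29 turned. Ratios give no level, so whether a marker was near 0 in the tissue cannot be read from them, and the part of the cell mixture in the Ube2c ratio was not tested.

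Among the remaining E2 genes, the large ratios came from single arrays or changed sign with the orientation. Ube2o, a large E2 that also acts as an E3, read 0.03, 0.25, -0.96 and -0.070. Array 3 was far below the others, and the mean was -0.28 ± 0.59 as deposited and -0.38 ± 0.50 turned. Ube2g2, the E2 of endoplasmic reticulum quality control, read 0.82, 0.049, -0.60 and -0.032. Pair 2 was near 0 in both orientations while pairs 1 and 3 were large and opposite, a turned mean of -0.49 ± 0.40 (limma adjusted p = 0.23). Ube2v1, the inactive E2 partner for lysine-63 chains, read 0.92, -0.12, -0.44 and 0.18. Array 1 stood above the rest, and the mean was 0.17 ± 0.69 as deposited and -0.40 ± 0.54 turned. Ube2e3 read -0.61, 0.13, -0.21 and -0.14, with array 1 lowest and a mean of -0.27 ± 0.31 as deposited and of 0.090 ± 0.45 turned. Ube2g1, Ube2d3 and Ube2l3 had smaller ratios that differed by orientation. Ube2g1 read -0.41, -0.43, 0.37 and -0.015, a turned mean of 0.33 ± 0.11. Ube2d3, a broad partner of E3 ligases, read -0.48, -0.30, 0.16 and 0.02, a turned mean of 0.26 ± 0.18. Ube2l3 read 0.25, 0.32, -0.20 and -0.095, the opposite order, with a turned mean of -0.22 ± 0.03. None of these 3 passed after adjustment. Ube2r2, a partner of cullin ligases, lay below 0 on all 4 arrays by little, with a mean of -0.039 ± 0.057. This held for the average and for one clone, while the other clone read 0.16, -0.056, 0.092 and -0.019. The 12 E2 genes not named so far had means between -0.11 and 0.096 as deposited.

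**Figure D4:**
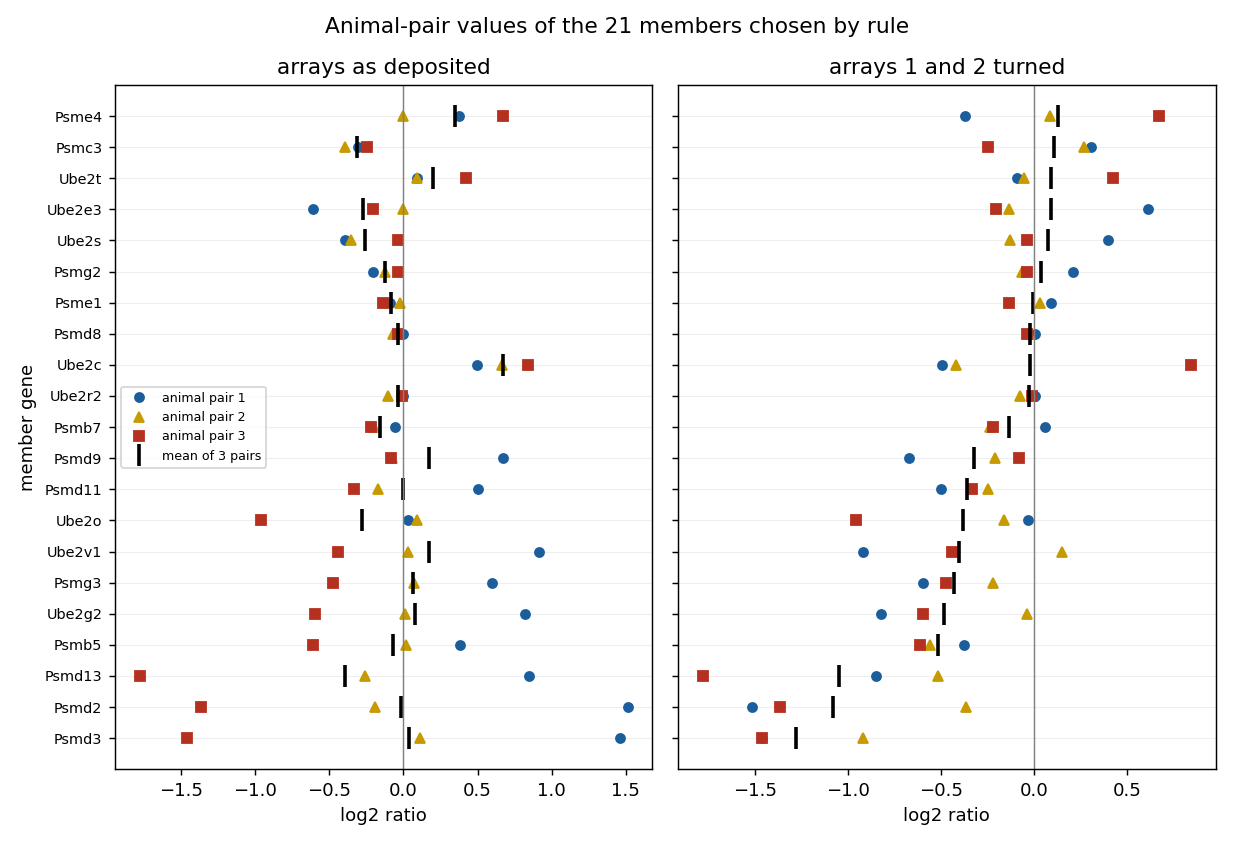
Log2 ratios of the 21 members chosen by rule in animal pairs 1, 2 and 3 (points) with their mean (bars), as deposited on the left and with arrays 1 and 2 turned on the right. Ube2c has its 3 points together on the left and apart on the right, and Psmd3 and Psmb5 have theirs apart on the left and together on the right.

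In the turned reading no member passed the adjusted threshold either, and the smallest adjusted p was 0.0810 for Psmd3. At an unadjusted p under 0.05, 20 members (31.7%) differed from 0, beside 20.8% of all genes. Of these 8 (12.7%) were positive, beside 6.97% of all genes, and 12 (19.05%) were negative, beside 13.8%. The positive ones included the alpha genes Psma2, Psma5 and Psma6 and the E2 genes Ube2d3 and Ube2g1. The negative ones included 7 of the 13 cap genes, and 1 cap gene was positive. Leaving out pair 1 gave 18 members (28.6%), beside 16.9% of all genes. Leaving out pair 2 gave 15 (23.8%), beside 13.1%, and leaving out pair 3 gave 15 (23.8%), beside 15.7%. Scaling the arrays gave 18 (28.6%), beside 19.4%. In all 5 settings 11 members were among those called: Psma6, Psmb5, Psmc1, Psmc5, Psmd3, Psmd4, Psmd6, Psmd11, Psmd13, Psmg3 and Ube2g1. The same count over all genes was not made, and the settings share arrays, so this list does not set the members apart.

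A fit as deposited with a dye term estimated the change from Cy3 to Cy5 on the high-salt heart. It passed an adjusted limma p of 0.05 in 8 members (12.7%), all lower with Cy5, beside 5.13% of all genes in either direction, 4.52% lower and 0.617% higher. They were Psmd2, Psmd3, Psmd4, Psmd13 and Psmc5 of the cap (5 of 13), the chaperone Psmg3, and the E2 genes Ube2g2 and Ube2v1, with 0 of 13 core genes. The terms were -2.92 for Psmd3, -2.88 for Psmd2 and -2.63 for Psmd13, each with an adjusted p of 0.0217. The term comes from the same arrays and the same contrast of orientations as the sign patterns, so it is no separate evidence for them. The estimate rests on array 3 minus array 1, which held different mice, so dye and animal pair cannot be told apart in it. Median absolute differences between arrays 2 and 4, which held the same mice, were 0.298 over the members and 0.195 over all genes. Between arrays of 1 orientation and different mice they were 0.198 (arrays 1 and 2) and 0.151 (arrays 3 and 4) over the members. Over all genes these were 0.141 and 0.143.

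Clones of 1 gene are separate readings of it, and here they often differed. Of the 32 members with 2 or more clones, the clones of 4 (Psma2, Psma6, Psmc1 and Psmg3) all changed sign with the orientation in the same way. The same count over all genes was not made, so it is a description only. For Psmd2, one clone read 1.44, 0.98, -1.56 and -0.91. A second read 3.11, 1.22, -2.69 and -1.15, the same order and larger. The third read -0.0073, -1.69, 0.16 and 0.38, near 0 on array 1 and opposite in sign to the other two on arrays 2, 3 and 4. Psmd3, Psmd13, Psmb5, Ube2c, Ube2t and Ube2s rest on 1 clone each, so their clones cannot be compared. Ube2l3, an E2 that works with RING-between-RING ligases, had the most clones, 5, and they ran from -0.27 to 0.90 on array 1 around a gene mean of 0.25. No member had clones whose means over pairs differed by more than 1.

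**Figure D5:**
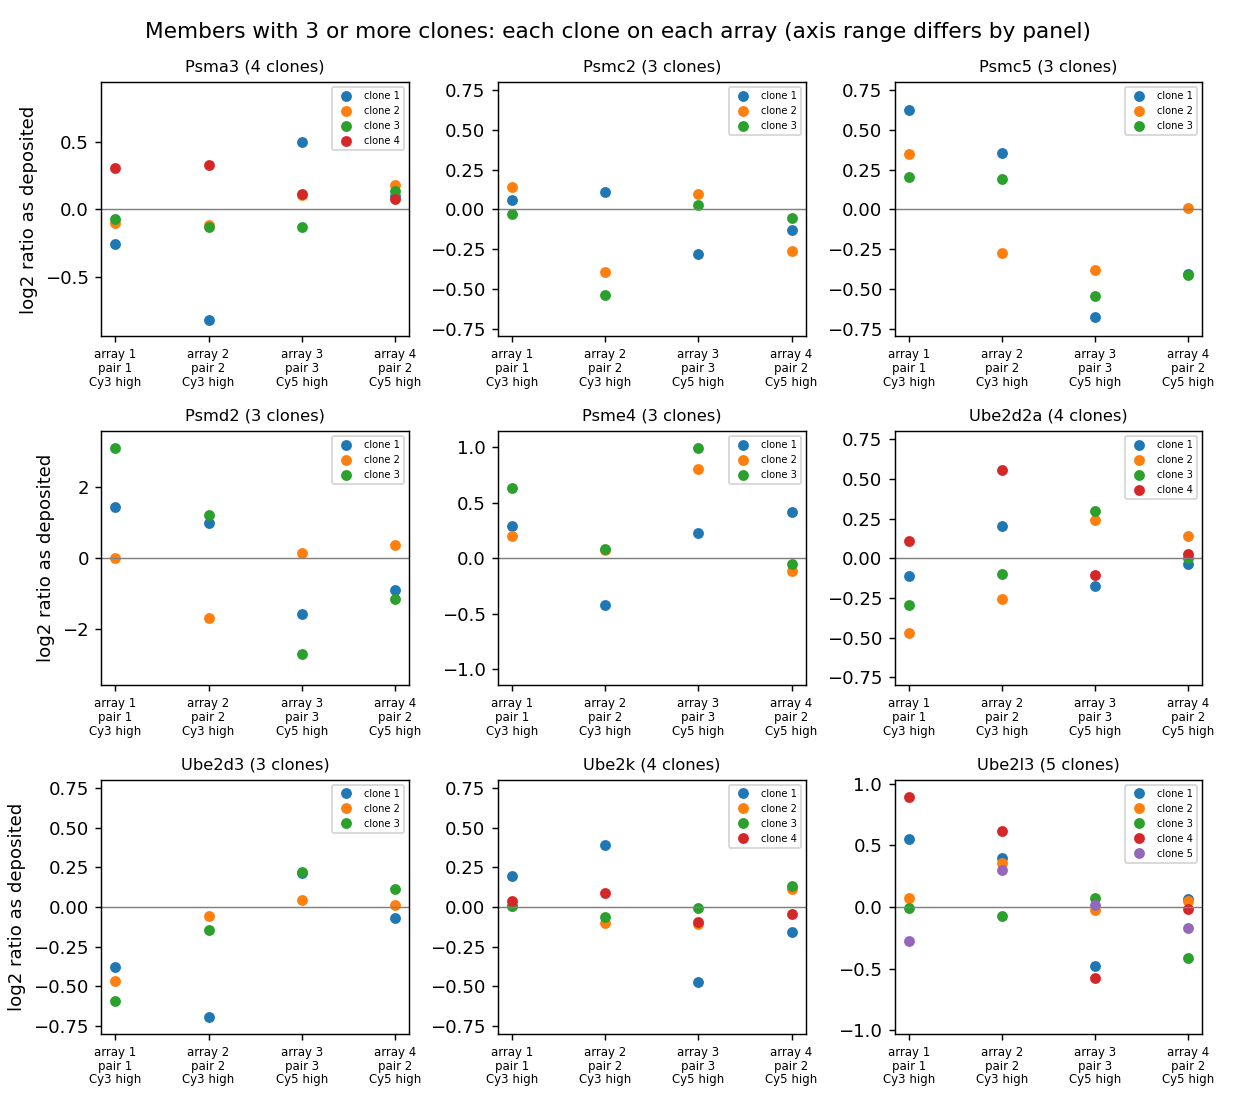
Log2 ratio as deposited of each clone (colour) on each array for the members with 3 or more clones. Vertical ranges differ by panel. Clones 1 and 3 of Psmd2 fall from above 0 on arrays 1 and 2 to below 0 on arrays 3 and 4, and clone 2 does not.

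Genes that work with these enzymes were centred on 0 as well. Ubiquitin and its relatives, other E1 and E2 enzymes, E3 ligases, deubiquitinases and proteasome cofactors had 155 measured genes of 224 listed, with a mean of -0.010 ± 0.089, 70 above 0 and 85 below. The 71 measured E3 ligases of 100 listed split into 35 above 0 and 36 below, and the 48 deubiquitinases of 66 into 20 and 28. Ubiquitin and ubiquitin-like genes were measured for 10 of 21, with 3 above 0 and 7 below and a mean of -0.061 ± 0.056. An unadjusted limma p under 0.05 was reached by 2 genes above 0 and 2 below (1.29% each), beside 2.81% and 2.63% of all genes, and 0 passed after adjustment. In the turned reading 16 were positive (10.3%) and 31 negative (20%) at that unadjusted level, beside 6.97% and 13.8% of all genes. Uchl1, a deubiquitinase known from neurons, had the highest mean of those named by rule at 0.55 ± 0.13 (limma adjusted p = 0.64). Birc3, a ligase that restrains cell death, had the lowest at -0.80 ± 0.50 (limma adjusted p = 0.86). Nfe2l1 encodes Nrf1, the factor that drives proteasome genes when proteasome activity falls, and it was looked up after its values were seen. It read 1.48, 0.58, -0.96 and -0.37 on arrays 1 to 4. Both Cy3 arrays were above 0 and both Cy5 arrays below, a sign pattern that 18.7% of all genes had. The mean was 0.21 ± 1.22 as deposited and -0.97 ± 0.50 turned. Nfe2l2, which encodes Nrf2, did not have this pattern, at -0.32, -0.22, -0.15 and 0.088. A link of either gene to the cap genes was not tested.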

How the data were processed

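Ventricle RNA of 6 mice was reverse transcribed with oligo(dT), labelled with Cy3 and Cy5 and hybridised to 4 printed cDNA arrays, per the labels' protocols. For every feature the authors deposited a log ratio on each array, read here as log2. Base, background correction, normalization and direction are not given in the sources used. Of 17664 features, 17207 had a value on all 4 arrays and the rest on none. Precision is limited by the number of arrays.

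Symbols came from the platform annotation (1 symbol for 12563 features, several for 412, none for 4689), and 12472 of 12480 gene IDs used were in the RefSeq table of GRCm38.p6. Clones were averaged per gene, arrays 2 and 4 were averaged as pair 2, and the mean of the pair values was compared with 0 by lmFit and eBayes of limma 3.58.1 under R 4.3.3, with Benjamini-Hochberg adjustment over all 8106 genes at 0.05. The dye fit left 1 residual degree of freedom per gene before moderation. The fit was tested on simulated data.

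Members, lists and the rule for named genes were chosen with earlier results of these data known. The rule took members with 1 sign on all 4 arrays, the 8 with the largest mean absolute ratio among those of opposite sign by orientation, immunoproteasome genes with Psmb5, Psmb6 and Psmb7, the 5 highest and 5 lowest means, members whose clone means differed by over 1, and from each partner list the 2 highest and 2 lowest with 1 sign on all 4 arrays. Other genes were named after their values were seen. Alternatives changed the direction, the arrays and pairs used, scaling, centring, the dye term and how clones were combined.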

Additional observations from a re-analysis of the deposited data

Results flagged for a closer look

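Of the 23 members whose sign changed with the dye orientation on every array, the 8 with the largest ratios are given here. The mean of arrays 1 and 2 (Cy3 on the high-salt heart) minus that of arrays 3 and 4 (Cy5 on it) was a log2 difference of 2.38 for Psmd3, 1.83 for Psmd13 and 1.80 for Psmd2 in the cap. It was 0.67 for the lid subunit Psmd11, 1.05 for the catalytic subunit Psmb5 and 0.76 for the chaperone Psmg3. Among the E2 enzymes it was 0.75 for Ube2g2 and 0.66 for Ube2o. They were chosen for this opposite sign, so the values are a description and the difference was not tested on other arrays.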

How the results depend on the processing

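As deposited, no member and no gene passed the adjusted threshold under any setting tried, so the counts here are at an unadjusted limma p under 0.05 (1 member higher, 2 lower). With the arrays turned they were 8 and 12 (12.7% and 19.05%), beside 6.97% and 13.8% of all genes. Clones fitted one by one gave 2 clones higher and 1 lower. With a dye term the counts were 2 and 6 members, and with pair 2 from array 4 alone 1 lower. Leaving out 1 pair gave 1 to 2 higher and 0 to 4 lower. Apart from the turned setting, the shares of all genes were not counted for these alternatives, so the changes are not results about the members.

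Turned, the subgroup means were -0.37 for the whole cap (-0.085 as deposited), -0.47 for its non-ATPase subunits (-0.072), 0.14 for the alpha ring (0.0092), -0.029 for the chaperones (0.034), 0.055 for E1 (-0.037) and -0.011 for E2 (0.0040). Of these the alpha ring, E1 and E2 moved by more than their SD over pairs. With 1 pair left out, the cap mean ran from -0.34 to 0.14, that of its non-ATPase subunits from -0.38 to 0.22, that of the alpha ring from -0.058 to 0.053 and that of the chaperones from -0.028 to 0.087. The E2 mean was also -0.0030 over single clones and 0.012 or -0.0037 with pair 2 from array 2 or array 4 alone.

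Of the 21 members named by rule, turning reversed 10: Psmc3 to 0.11, Psmd3 to -1.28, Psmd9 to -0.32, Psmg2 to 0.035, Psmg3 to -0.43, Ube2c to -0.024, Ube2e3 to 0.090, Ube2g2 to -0.49, Ube2s to 0.077 and Ube2v1 to -0.40. Scaling reversed Psmd11 (0.0095) and Psmd2 (0.061). Pair 2 from array 2 alone reversed Psmb5 (0.11), Psmd11 (0.082) and Psmd2 (0.11), and from array 4 alone Psmd3 (-0.27) and Psmg3 (-0.0082). With 1 pair left out, ranges that crossed 0 were -0.30 to 0.20 for Psmb5, -0.25 to 0.16 for Psmd11, -1.02 to 0.30 for Psmd13, -0.78 to 0.66 for Psmd2, -0.67 to 0.79 for Psmd3, -0.082 to 0.30 for Psmd9, -0.20 to 0.34 for Psmg3, -0.29 to 0.42 for Ube2g2, -0.46 to 0.061 for Ube2o and -0.21 to 0.47 for Ube2v1. Centring, the dye term and medians over clones reversed none of the 21. Single clones give no gene value, so that setting has none for them. Beyond what the turned reading and the left-out pairs show by construction, the cause was not tested. The added settings on the turned reading were chosen after seeing the data.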
